A study of Mus musculus with 6 samples.

Results

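The chemokine ligand genes of MC3T3-E1 cells were described as a list of 10 genes, Ccl2, Ccl5, Ccl7, Ccl9, Cxcl1, Cxcl5, Cxcl12, Cxcl14, Cxcl16 and Cx3cl1, taken by gene name from the 26187 genes of the FPKM tables. FPKM is the number of fragments scaled to the length of the transcript and to the mapped fragments of the library. Of the 10 genes, 8 had a row, and Cxcl5 and Cxcl14 were not analysed here. Only 4 of the 8, namely Ccl2, Ccl7, Cxcl12 and Cx3cl1, averaged 0.5 FPKM or more across all 6 libraries and entered the test across genes. MC3T3-E1 is a single pre-osteoblast line derived from mouse calvaria. In the PAKG group, cells received PAKG–8diol–PEG(S) MPs, small polyester microparticles built on α-ketoglutarate with 1,8-octanediol and PEG, at 30 μg/mL for 2 days. The OC group was kept for 2 days without MPs. Both groups were in the same osteoconductive (OC) medium, which contains ascorbic acid and β-glycerophosphate, so neither group is free of an osteogenic stimulus. Poly(A) RNA of 3 samples per group was sequenced to ask how the cells respond to the MPs. The methods describe triplicate wells and repeats for the cell experiments in general but do not say which of these the RNA samples are, so p-values measure only the spread between samples, which may be technical.

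Summed FPKM ranged from 289675.9 to 310581.7 in PAKG libraries and from 295863.6 to 325818.3 in OC libraries. Depth, estimated from low FPKM values, was 32800000 to 41600000 fragments per PAKG library and 31400000 to 40400000 per OC library. In a principal component analysis, the groups were apart on the first component (43.9% of the variance), while the second (25.1%) set replicate 2 of both groups apart from the other 4 libraries. The label names pre-osteoblastic cells, and of 13 markers of these, 12 averaged 0.5 FPKM or more. Lepr did not, at 0.1 to 0.13 FPKM in PAKG and 0.15 to 0.24 FPKM in OC. The summed FPKM of the 13 was 8906.68 to 9563.52 in PAKG and 6269.4 to 7343.77 in OC. As a response to the MPs, not a measure of identity, 6 of the 12 tested rose and 1 fell at an adjusted p under 0.05 (limma). Of all genes, 5.97% were higher and 8.73% lower. Sp7 and Alpl, a transcription factor and a phosphatase of the osteoblast lineage, rose by 1.35 and 1.61 on the log2 scale (limma, adjusted p = 7.83e-05 and 0.000223). Spp1, which encodes the bone matrix protein osteopontin and is named after its values were seen, was the 1 that fell (-0.5, limma adjusted p = 0.0186), and its adjusted p was 0.0714 when PAKG replicate 3 was left out, 0.0714 for OC replicate 1 and 0.0827 for OC replicate 3. As the RNA is from bulk cells, fewer expressing cells and less RNA per cell cannot be told apart in any result that follows.

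Chemokines are small secreted proteins that guide cell migration through G protein-coupled receptors, and they are grouped by the spacing of their first cysteines. CC chemokines such as Ccl2, Ccl7, Ccl5 and Ccl9 attract mainly monocytes, T cells and osteoclast precursors, whereas the CXC chemokine Cxcl12, made by stromal cells of the marrow, retains hematopoietic stem and progenitor cells through Cxcr4. Cx3cl1 and Cxcl16 are made as membrane-bound proteins and are released by the sheddases Adam10 and Adam17. In many stromal cells, inflammatory cytokines induce CC chemokine genes through NF-kB, and proteins that degrade AU-rich mRNAs limit how long the transcripts last.

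The promoters of 3 of the genes are shown, with Cxcl12 near the top of the levels, Ccl9 near the bottom and Cxcl1 listed at 0 to 0.01 FPKM. The Cxcl1 row named only a retained-intron transcript, so the level of the protein-coding one was not measured. Of the 10 genes, 5 had a promoter in the RefSeq set (GRCm38.p6), namely Ccl9, Cxcl1, Cxcl12, Cxcl14 and Cx3cl1. Only bases upstream of the transcript start are printed, 5′ to 3′ on the gene's strand. Capitals mark matches on either strand to an NF-kB type sequence (GGGNNNNNCC), a TATA box (TATAAA), a GC box (GGGCGG) or an AP-1 type sequence (TGANTCA), and a match is a description, not a site. The promoters lie at chr6:117168285-117168534 on the plus strand for Cxcl12, chr11:83578637-83578886 on the minus strand for Ccl9 and chr5:90890995-90891240 on the plus strand for Cxcl1.
Cxcl12: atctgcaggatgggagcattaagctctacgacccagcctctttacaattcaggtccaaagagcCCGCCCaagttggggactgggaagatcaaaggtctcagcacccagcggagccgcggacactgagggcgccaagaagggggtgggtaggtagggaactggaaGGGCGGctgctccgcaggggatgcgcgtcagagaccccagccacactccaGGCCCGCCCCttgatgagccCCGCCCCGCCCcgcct
Ccl9: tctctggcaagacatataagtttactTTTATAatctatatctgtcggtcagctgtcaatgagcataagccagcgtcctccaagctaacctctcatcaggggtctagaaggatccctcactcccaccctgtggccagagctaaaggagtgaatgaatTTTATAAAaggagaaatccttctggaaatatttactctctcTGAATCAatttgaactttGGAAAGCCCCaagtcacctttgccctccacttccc
Cxcl1: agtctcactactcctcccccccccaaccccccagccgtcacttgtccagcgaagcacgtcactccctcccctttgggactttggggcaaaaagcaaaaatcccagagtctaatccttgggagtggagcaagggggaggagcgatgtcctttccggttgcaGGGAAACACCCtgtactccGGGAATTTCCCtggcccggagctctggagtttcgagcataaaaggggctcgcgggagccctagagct
The Cxcl12 window held 5 GC box matches, the nearest 11 bases before the start, and 1 NF-kB type match that overlaps one of them. The Ccl9 window held 3 TATA box matches, of which the pair at 94 and 92 bases before the start overlap on opposite strands, and 1 AP-1 type match at 53 bases and 1 NF-kB type match at 35 bases before the start. In the Cxcl1 window the NF-kB type matches formed 2 stretches, each read on both strands, which gives 4 matches, and neither a TATA box nor a GC box match was found. Across 32851 RefSeq promoters, the NF-kB type sequence was found in 45.8%, the GC box in 32.7%, the TATA box in 12.4% and the AP-1 type sequence in 6.75%.

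Cx3cl1 and Cxcl12 made up most of the chemokine FPKM in both groups, and each CC ligand was lower than either of them. Cx3cl1 held 49.5% of the FPKM summed over the 8 genes in PAKG and 44.9% in OC. Cxcl12 held 39.7% in PAKG and 31.2% in OC. Ccl2 came next, with 4.91% in PAKG and 16.2% in OC, followed by Ccl7 with 2.15% in PAKG and 4.96% in OC. By mean over the 6 libraries, Cx3cl1 stood at percentile 85.4 of the genes above 0, Cxcl12 at 81.6, Ccl2 at 65.6, Ccl7 at 56.1, Ccl5 at 49.4, Cxcl16 at 46.7 and Ccl9 at 45.4. Cx3cl1 lay above Cxcl12 in each of the 6 libraries, and Cxcl12 lay above Ccl2 in each. The order of the low genes was less clear, since Ccl7 and Ccl5 overlapped within PAKG (0.52 to 0.65 FPKM and 0.47 to 0.57 FPKM), and Ccl5, Ccl9 and Cxcl16 overlapped within OC. The 4 CC ligands together summed to 3.17, 2.35 and 2.01 FPKM in the PAKG libraries, against 6.1, 5.75 and 8.35 FPKM in the OC libraries. That was 12.2%, 8.8% and 7.67% of the chemokine FPKM in PAKG, against 21.7%, 20.3% and 27.2% in OC, so the groups did not overlap. Ccl2 alone averaged 1.29 FPKM of a mean CC sum of 2.51 FPKM in PAKG, and 4.70 FPKM of 6.73 FPKM in OC. The CC sum and share thus mainly restate the difference in Ccl2 and are no further test. They do not describe a fall shared by the CC ligands, since Ccl5 was higher in PAKG. Summed over all 8 genes, FPKM was 26.3 ± 0.323 in PAKG and 29.1 ± 1.47 in OC (SD, n = 3 each).

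**Figure D1:**
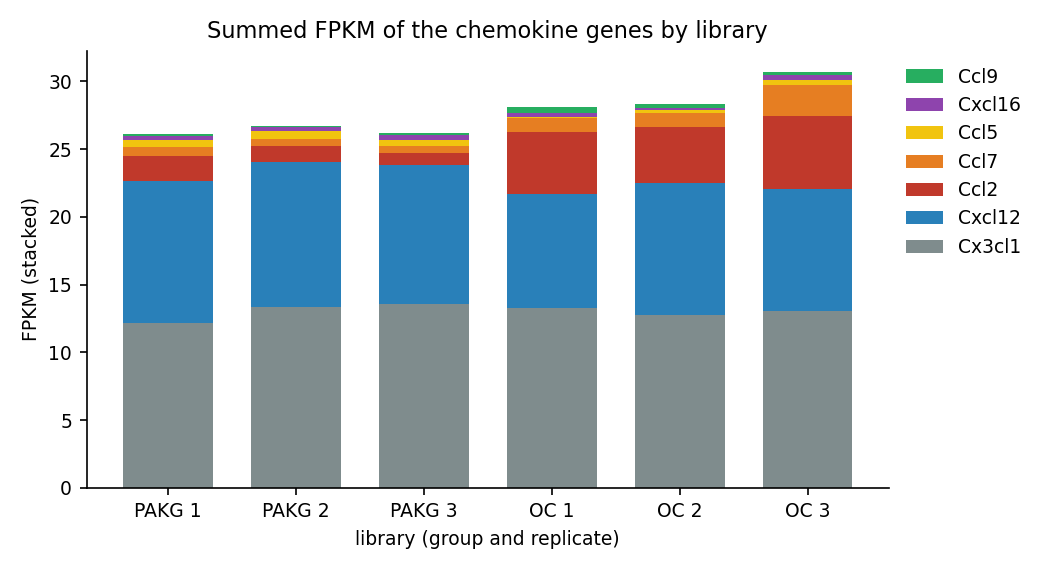
FPKM of 7 chemokine genes stacked from 0, one bar for each of the 3 PAKG libraries and then the 3 OC libraries, with one colour per gene. Cx3cl1 and Cxcl12 fill most of every bar, and the segments of the 4 CC ligands add up to 2.01 to 3.17 FPKM in PAKG and 5.75 to 8.35 FPKM in OC.

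Ccl2 fell in PAKG cells, with 0.275 of its OC mean, and it was the chemokine gene with the largest tested difference. Ccl2, which recruits monocytes through Ccr2, lies on chromosome 11 of GRCm38 at 82035571 to 82037453 on the plus strand (ENSMUSG00000035385). It was at 1.88, 1.16 and 0.84 FPKM in the PAKG libraries, against 4.53, 4.14 and 5.42 FPKM in the OC libraries. All PAKG values were thus below all OC values, and the highest PAKG value was under the lowest OC value by more than either group's SD (0.533 FPKM in PAKG and 0.656 FPKM in OC). The fold change was 0.279 (95% interval 0.184 to 0.422), or -1.84 on the log2 scale (SE 0.26, limma adjusted p = 0.0036). It kept this call in 15 of 15 alternative settings that test for any change, with log2 fold changes of -2.13 to -1.33 and adjusted p of 0.0022 to 0.0242. The treat test, which asks for a change beyond 2-fold and is not among the 15 here or below, did not call it (limma adjusted p = 1). That test called 21 of all 12590 genes. Without replicate 2 of both groups, the libraries that stand apart, it was -1.89 (limma adjusted p = 0.0153). Taken as differences between libraries with the same replicate number, Ccl2 was -1.23, -1.75 and -2.55 on the log2 scale. These levels rest on an estimated 64, 32 and 22 fragments in PAKG and 115, 128 and 178 in OC. Gm17268, which overlaps Ccl2 on the opposite strand, was not analysed here.

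Ccl7, the neighbour of Ccl2, also fell, but its call was close to the threshold and depended on single libraries. Ccl7 likewise acts on monocytes through Ccr2, and its gene starts 8258 bases beyond the end of Ccl2, at 82045712 to 82047525 on the plus strand (ENSMUSG00000035373). It was at 0.65, 0.53 and 0.52 FPKM in PAKG, against 1.04, 1.02 and 2.26 FPKM in OC. The groups did not overlap, and OC replicate 3 was more than 1 FPKM above the other OC libraries. These Ccl7 levels rest on an estimated 22, 14 and 14 fragments in PAKG and 26, 31 and 73 in OC, so the counting error is large. The fold change was 0.46 (95% interval 0.283 to 0.747), or -1.12 on the log2 scale (SE 0.30, limma adjusted p = 0.0457). The adjusted p in limma was 0.0831 without OC replicate 3 (log2 fold change -0.77), 0.0644 without OC replicate 1, 0.0852 without PAKG replicate 1, 0.0697 without PAKG replicate 2 and 0.133 without PAKG replicate 3. Without replicate 2 of both groups it was 0.0565, and with no filter on low genes 0.116. Of 15 settings, 6 kept the call, and the log2 fold change was negative in all 15, from -1.3 to -0.6.
Ccl2 was above Ccl7 in each library, by a ratio of 2.89, 2.19 and 1.62 in PAKG, against 4.36, 4.06 and 2.4 in OC. The ratios of the groups overlapped (exact permutation test, 2-sided p = 0.2, where 0.1 is the smallest p that 3 against 3 allow). No other gene of their cluster, which also holds Ccl11, Ccl12, Ccl8 and Ccl1, was analysed here.

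**Figure D2:**
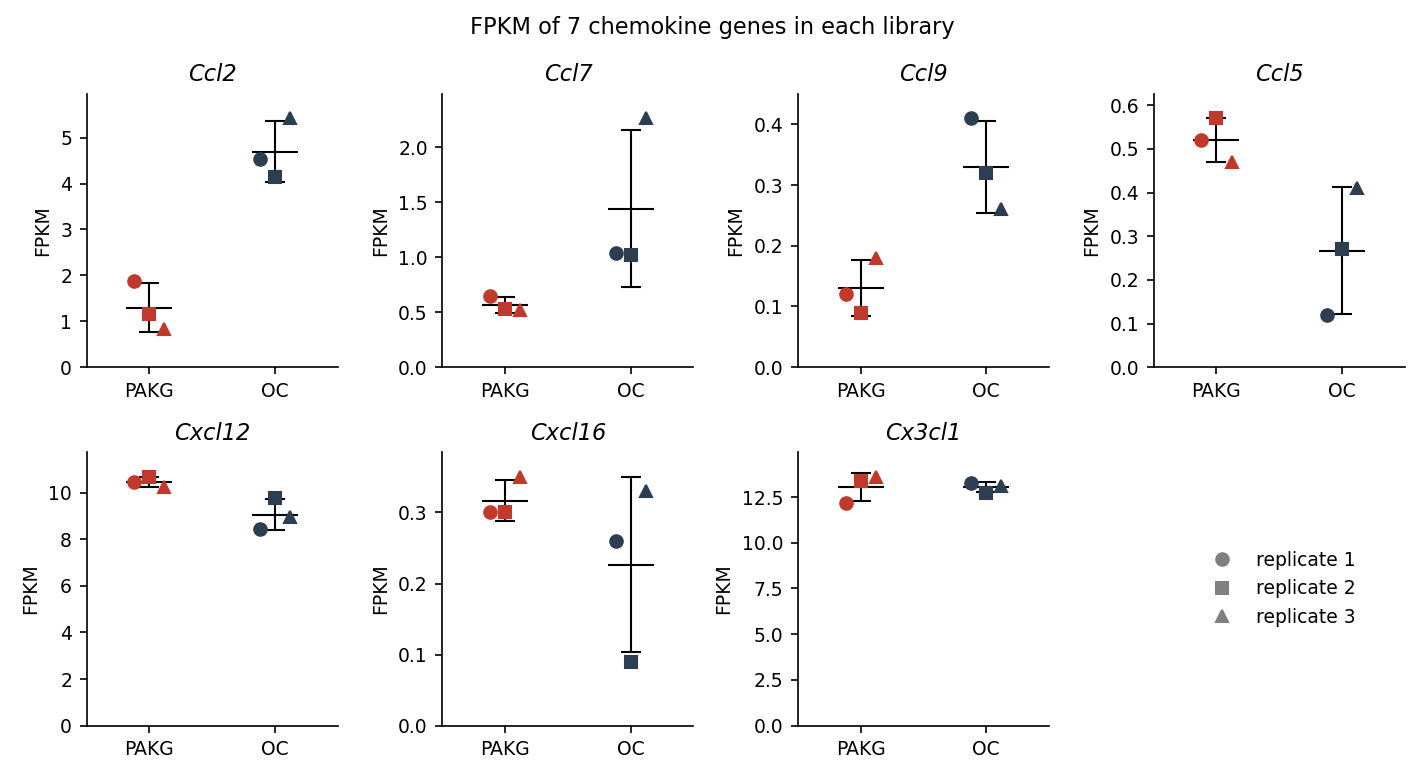
FPKM of 7 chemokine genes, one panel per gene, with PAKG left of OC and each y axis starting at 0. Points are libraries with marker shape giving the replicate number, the horizontal bar is the mean and the error bar the SD of 3 libraries; the groups are apart for Ccl2, Ccl7, Ccl9, Ccl5 and Cxcl12 and overlap for Cx3cl1 and Cxcl16.

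Ccl9 and Ccl5, the other CC ligands, stood on opposite sides, but both lay under the filter on low values and have no test among the 12590 genes. They are neighbours on the minus strand of chromosome 11, 42400 bases apart, with Ccl5 at 83525778 to 83530518 (ENSMUSG00000035042) and Ccl9 at 83572919 to 83578636 (ENSMUSG00000019122). Ccl9, a chemokine of rodents that acts through Ccr1 and is made by osteoclasts, was at 0.12, 0.09 and 0.18 FPKM in PAKG, against 0.41, 0.32 and 0.26 FPKM in OC. All PAKG values were below all OC values, by a ratio of means of 0.394. Ccl5, which attracts T cells, was at 0.52, 0.57 and 0.47 FPKM in PAKG, against 0.12, 0.27 and 0.41 FPKM in OC. Here all PAKG values were above all OC values, by a ratio of means of 1.95, although PAKG replicate 3 and OC replicate 3 were only 0.16 apart on the log2 scale. With no filter, limma gave adjusted p = 0.112 for Ccl9 (log2 fold change -0.91, SE 0.26) and adjusted p = 0.276 for Ccl5 (0.84, SE 0.34). The Ccl5 values stand for an estimated 8 to 12 fragments in PAKG and 2 to 9 in OC, and the Ccl9 values for 9 to 18 in PAKG and 32 to 39 in OC, so the counting error is large for both. Ccl6, a further 9245 bases on, was listed at 0 to 0.05 FPKM in PAKG and 0 to 0.06 FPKM in OC.

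Cxcl12, the homeostatic chemokine of stromal cells, was slightly higher in PAKG, by less than the fold threshold of 2. Its gene lies on chromosome 6 at 117168535 to 117181367 on the plus strand (ENSMUSG00000061353), and its promoter is the GC box-rich sequence shown above. It was at 10.47, 10.67 and 10.25 FPKM in PAKG, against 8.44, 9.75 and 8.97 FPKM in OC. The lowest PAKG value was above the highest OC value, and the OC libraries were the more variable (SD 0.21 FPKM in PAKG and 0.659 FPKM in OC). The log2 fold change was 0.21 (SE 0.08), a fold of 1.16 with a 95% interval of 1.02 to 1.31, and it did not pass the test (limma adjusted p = 0.117). With the replicate number as a block it passed (limma adjusted p = 0.0413), as it did without replicate 2 of both groups (0.25, limma adjusted p = 0.0447). Over all 15 settings the log2 fold change was 0.16 to 0.26 and the adjusted p 0.0413 to 0.288.
The balance of Cxcl12 to Ccl2 was on the side of Cxcl12 in PAKG, with 5.57, 9.2 and 12.2 FPKM of Cxcl12 per FPKM of Ccl2 in PAKG, against 1.86, 2.36 and 1.65 in OC. The means were 8.99 ± 3.32 in PAKG and 1.96 ± 0.36 in OC (SD, n = 3 each). The groups did not overlap (exact permutation test, 2-sided p = 0.1, the smallest p possible). That outcome was fixed in advance, because Cxcl12 alone was higher and Ccl2 alone lower without overlap. The ratio thus restates these differences and is no further test. The ratio of Cxcl12 to Cx3cl1 was 0.862, 0.797 and 0.754 in PAKG, against 0.636, 0.765 and 0.686 in OC, and the groups overlapped (exact permutation test, 2-sided p = 0.2).

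The tethered chemokines showed no difference that passed a test. Cx3cl1, the only CX3C chemokine, which binds Cx3cr1 on monocytes and osteoclast precursors, lies on chromosome 8 at 94772009 to 94782427 on the plus strand (ENSMUSG00000031778). It was at 12.15, 13.38 and 13.60 FPKM in PAKG, against 13.28, 12.74 and 13.08 FPKM in OC. The groups overlapped, with means of 13.0 FPKM in both and an SD of 0.781 FPKM in PAKG and 0.273 FPKM in OC. The fold change was 1.0 with a 95% interval of 0.891 to 1.12 (limma adjusted p = 0.997). The sign of this value near 0 was not stable, being -0.04 to 0.05 on the log2 scale over 15 settings and positive under both rescalings of the libraries.
Cxcl16, which attracts Cxcr6-bearing T cells, lies on chromosome 11 at 70453983 to 70459984 on the minus strand (ENSMUSG00000018920). It was at 0.30, 0.30 and 0.35 FPKM in PAKG, against 0.26, 0.09 and 0.33 FPKM in OC, under the filter, and the groups overlapped. OC replicate 2 was the low library, and with no filter limma gave adjusted p = 0.629. It overlaps Zmynd15 on the opposite strand, which had a mean of 0.022 FPKM.
Cxcl1, a neutrophil chemokine on chromosome 5 at 90891241 to 90893115 on the plus strand (ENSMUSG00000029380), was listed at 0 in all 3 PAKG libraries and in OC replicates 1 and 2, and at 0.01 FPKM in OC replicate 3. Its row named only the retained-intron transcript, 1 of 2 in the annotation, so these values do not measure the protein-coding one.

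Among the 4 tested chemokine genes, 2 were called lower and 0 higher at both thresholds, that is, an adjusted p under 0.05 and a change by 2-fold or more. Over all 12590 genes, 0.58% were called lower and 0.866% higher at both thresholds. Without the fold threshold the genes called were again Ccl2 and Ccl7, beside 8.73% of all genes lower and 5.97% higher. With the block, Cxcl12 was added as 1 gene higher. At an unadjusted p under 0.05 in limma, Ccl2 and Ccl7 were lower and Cxcl12 higher, beside 16.8% of all genes lower and 12.0% higher. In 5 of the 8 genes with a row the groups did not overlap, with Ccl2, Ccl7 and Ccl9 lower and Ccl5 and Cxcl12 higher. Of these, Ccl9 and Ccl5 are under the filter, so they have no like share over all genes. Among the 4 tested genes, Ccl2 and Ccl7 were lower and Cxcl12 higher without overlap. Beside these, 19.6% of all genes tested were lower and 13.7% higher without overlap. The median log2 fold change of the 4 tested genes was -0.56, against -0.03 over all genes tested. No single gene lay near that median, with Ccl2 at -1.84, Ccl7 at -1.12, Cx3cl1 near 0 and Cxcl12 at 0.21. It therefore does not describe a fall shared by the 4 genes. By p, Ccl2 ranked 437 and Ccl7 ranked 1757 among all genes tested.

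**Figure D3:**
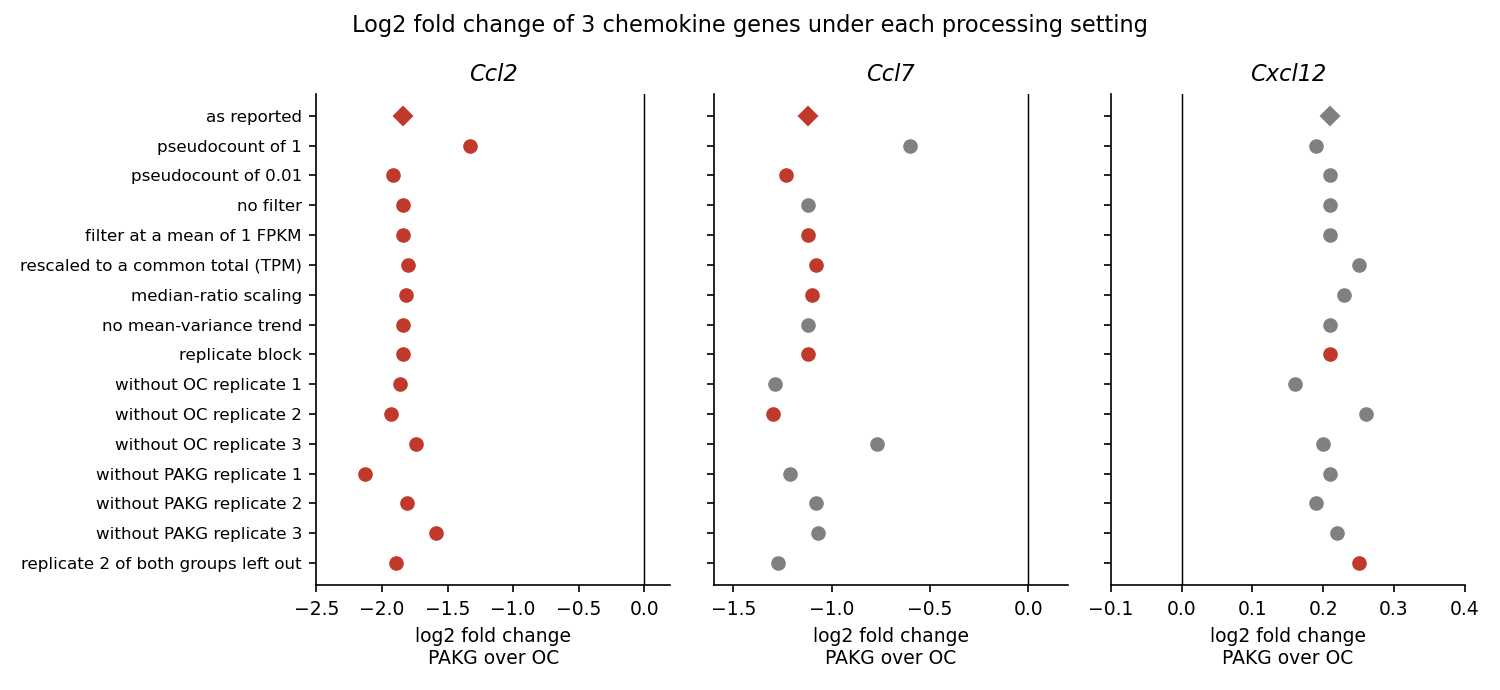
Log2 fold change, PAKG over OC, of 3 chemokine genes under the reported setting (diamond) and each alternative. Ccl2 stays between -2.13 and -1.33, Ccl7 between -1.3 and -0.6 and Cxcl12 between 0.16 and 0.26; red marks an adjusted p under 0.05 and grey one at or above it.

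Of the 28 other chemokine ligands listed, 11 had a row and 1 was tested. That gene, Ccl25, which attracts thymocytes and gut T cells, had a log2 fold change of -0.09 (SE 0.18, limma adjusted p = 0.803). The summed FPKM of the 11 was 1.44 to 1.68 in PAKG and 1.29 to 1.66 in OC, far below the sum over the 8 genes of the main list.

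Of the 23 chemokine receptors listed, 14 had a row and 2 were tested, both of the atypical kind that bind chemokines without classical signalling. Ackr3, which scavenges Cxcl12, fell. It was at 1.11, 1.07 and 1.42 FPKM in PAKG, against 2.59, 2.55 and 2.42 FPKM in OC. No PAKG library reached any OC library, and the log2 fold change was -1.02 (SE 0.13, limma adjusted p = 0.00273), called in 15 of 15 settings. The next genes are named after their values were seen. Ackr4, which scavenges CC chemokines such as Ccl25, averaged 9.17 ± 0.338 FPKM in PAKG and 8.7 ± 0.455 FPKM in OC (SD, n = 3 each; limma adjusted p = 0.547). Cxcr4, the signalling receptor of Cxcl12, was at 0 to 0.06 FPKM in PAKG and 0.06 to 0.12 FPKM in OC, under the filter.

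Of 12 sheddases and proteases that act on chemokines, and their regulators, 8 were tested, of which 2 rose and 2 fell at the adjusted p alone and 0 passed both thresholds in either direction. Over all genes, 5.97% rose and 8.73% fell at the adjusted p alone. Mmp2, a gelatinase that clips Ccl7 and Cxcl12, was the most abundant, at 537.84, 637.16 and 577.42 FPKM in PAKG, against 402.31, 404.92 and 374.29 FPKM in OC (log2 fold change 0.57, SE 0.09, limma adjusted p = 0.00646). Its activator Mmp14 averaged 122 ± 1.01 FPKM in PAKG and 85.1 ± 9.15 FPKM in OC (SD, n = 3 each; log2 fold change 0.53, limma adjusted p = 0.00852). For both, all PAKG libraries were above all OC libraries. The following genes were chosen after their values were seen. Timp3, an inhibitor of metalloproteinases that include Adam17, was lower, at 24.3 ± 1.91 FPKM in PAKG and 41.1 ± 3.03 FPKM in OC (log2 fold change -0.76, limma adjusted p = 0.00164). Rhbdf1, which helps Adam17 to the cell surface, had -0.27 (limma adjusted p = 0.0404), a call that was lost with any 1 library left out (adjusted p 0.051 to 0.147). The sheddases of Cx3cl1 and Cxcl16 themselves had log2 fold changes near 0, with -0.02 for Adam10 (limma adjusted p = 0.931) and -0.03 for Adam17 (limma adjusted p = 0.894). The median over the 8 was 0.12, against -0.03 over all genes.

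All 20 genes listed for NF-kB and for the decay of inflammatory mRNAs were tested, and 16 did not pass. At the adjusted p alone 3 rose and 1 fell, beside 5.97% and 8.73% of all genes, and at both thresholds 0 did in either direction. At an unadjusted p under 0.05 in limma, 3 were higher and 3 lower, beside 12.0% and 16.8% of all genes. The median of the 20 was 0.01. Khsrp, an mRNA decay factor and the most abundant, had a log2 fold change of -0.14 (SE 0.08, limma adjusted p = 0.287). Zfp36l2, of the same family of AU-rich binding proteins as Zfp36, was lower, at 21.8 ± 0.709 FPKM in PAKG and 26.6 ± 0.906 FPKM in OC (SD, n = 3 each; log2 fold change -0.29, limma adjusted p = 0.0249). Rescaling of the libraries to a common total took its adjusted p to 0.11, and leaving out OC replicates 1, 2 or 3 or PAKG replicates 1 or 3 to 0.061, 0.0703, 0.0932, 0.0849 and 0.102. The genes in the rest of this paragraph were chosen after their values were seen. Tnip1, which restrains NF-kB signalling, was at 16.53, 14.15 and 16.34 FPKM in PAKG, against 8.39, 8.14 and 7.8 FPKM in OC (log2 fold change 0.94, limma adjusted p = 0.000657). Zc3h12a, an RNase that degrades inflammatory mRNAs, averaged 2.5 ± 0.129 FPKM in PAKG and 1.65 ± 0.0462 FPKM in OC (0.57, limma adjusted p = 0.00883). Zfp36, which binds AU-rich mRNAs and speeds their decay, averaged 4.53 ± 0.254 FPKM in PAKG and 3.3 ± 0.191 FPKM in OC (0.45, limma adjusted p = 0.0146). Its adjusted p was 0.0559 without OC replicate 1, 0.0559 without PAKG replicate 1 and 0.0805 without PAKG replicate 3. The subunit genes Rela (0.02, limma adjusted p = 0.923) and Nfkb1 (-0.11, limma adjusted p = 0.382) and the inhibitor gene Nfkbia (0.20, limma adjusted p = 0.23) did not pass, nor did Tnfaip3, a partner of Tnip1 that likewise restrains NF-kB signalling (-0.29, limma adjusted p = 0.117).

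Of 17 receptors and receptor adaptors through which inflammatory signals reach chemokine genes, all were tested. At the adjusted p alone (limma) 3 fell and 0 rose, beside 8.73% and 5.97% of all genes, with a median of -0.07. At an unadjusted p under 0.05, 4 were lower and 1 higher, beside 16.8% and 12.0% of all genes. Osmr, the receptor subunit for oncostatin M, passed both thresholds. It was at 1.67, 1.89 and 1.63 FPKM in PAKG, against 4.54, 5.42 and 4.59 FPKM in OC (log2 fold change -1.43, SE 0.11, limma adjusted p = 0.000403). Il1r1, the signalling receptor for interleukin-1 and named after its values were seen, was at 1.97, 2.53 and 2.17 FPKM in PAKG, against 3.84, 4.43 and 3.95 FPKM in OC (-0.85, limma adjusted p = 0.00341). For both genes every PAKG library was below every OC library. The third, the TNF receptor gene Tnfrsf1b, also named after its values were seen, had -0.44 (limma adjusted p = 0.0458), and 7 of 15 settings kept its call, with adjusted p of 0.0292 to 0.161.

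**Figure D4:**
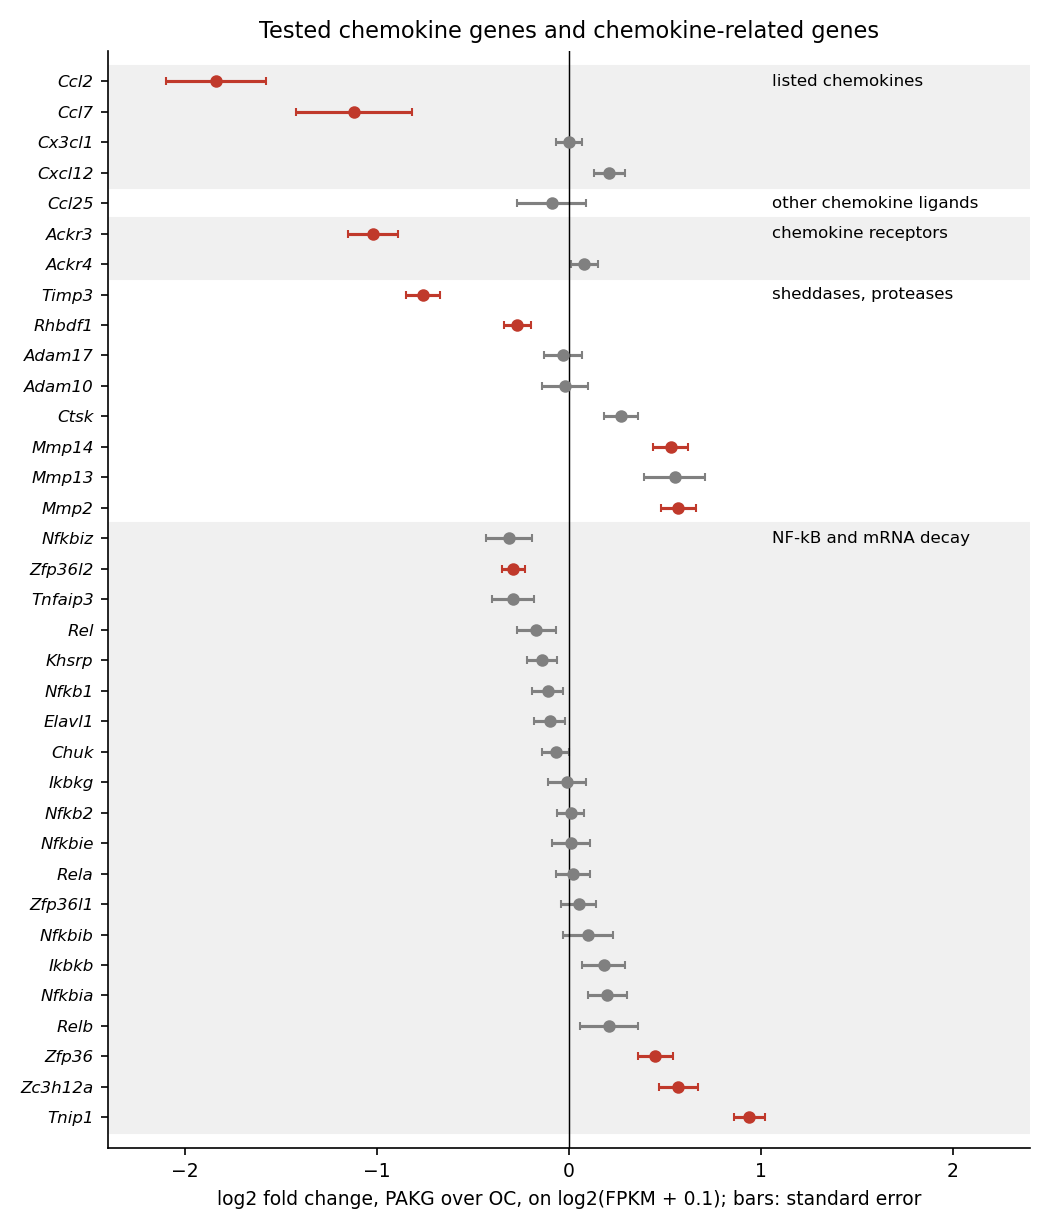
Log2 fold change, PAKG over OC, of the tested chemokine genes and of the tested genes of 4 related lists, with bars for the standard error. Red marks an adjusted p under 0.05 and grey one at or above it; Ccl2 at -1.84 is the lowest value plotted and Tnip1 at 0.94 the highest.

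Markers of leukocytes, which also make CC chemokines, had a higher summed FPKM in PAKG, while the defining gene Ptprc was at or near 0. Of 15 markers, 10 had a row and 4 were tested, with 1 higher and 0 lower at the adjusted p alone, beside 5.97% and 8.73% of all genes. At an unadjusted p under 0.05 in limma, 2 were higher and 0 lower, beside 12.0% and 16.8% of all genes. Their summed FPKM was 21.64 to 25.18 in PAKG and 13.81 to 18.23 in OC. Most of it was Lyz2, a lysozyme gene of macrophages, at 16.02, 15.22 and 16.95 FPKM in PAKG, against 11.46, 8.51 and 11.05 FPKM in OC (log2 fold change 0.64, limma adjusted p = 0.012, and 0.0563 without PAKG replicate 3). Cd14, a lipopolysaccharide co-receptor, did not pass (limma adjusted p = 0.844). Ptprc, which every leukocyte expresses and which is named after its values were seen, was at 0 to 0.01 FPKM over the 6 libraries. The genes in the next 5 sentences are also named after their values were seen. Csf1r was at 0.29, 0.22 and 0.28 FPKM in PAKG, against 0.09, 0.06 and 0.12 FPKM in OC. Fcer1g was at 1.35, 0.8 and 0.55 FPKM in PAKG, against 0, 0.16 and 0.11 FPKM in OC. The macrophage marker Cd68 had a log2 fold change of -0.1 and did not pass (limma adjusted p = 0.841). Nor did Cd74, with 0.86 (limma adjusted p = 0.096). Laptm5 averaged 0.0467 FPKM in PAKG and 0.02 FPKM in OC, and Spi1 0.03 FPKM in PAKG and 0.00667 FPKM in OC. Of 7 endothelial markers 4 had a row and 0 passed the filter, with sums of 0.09 to 0.14 FPKM in PAKG and 0 to 0.14 FPKM in OC. The part of such cells in the chemokine values was not tested.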

How the data were processed

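RNA-Seq values of 6 libraries were analysed, 3 PAKG and 3 OC, with groups and replicate numbers from the sample labels. The authors deposited FPKM per gene, rounded to 2 decimals, 1 table per library. As tools, the notes of the submitters on processing list cutadapt, FastQC, HISAT2, StringTie and DESeq2, with the build GRCm38. Not given in the sources used here were versions, the strand setting and the annotation release. Since FPKM values are no counts, a count model was not fitted. GENCODE M21 (GRCm38) held 99.76% of the gene IDs and gave the coordinates. Depth was estimated from low values of single-transcript genes, and whole reads were not recovered; fragment numbers are therefore estimates, and they cover counting error only.

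Genes averaging 0.5 FPKM or more, 12590 in all, were compared on log2(FPKM + 0.1) in R 4.3.3 with limma 3.58.1 (eBayes with trend, 2-sided, Benjamini-Hochberg over all of them). Fold changes on this scale understate the change of low genes. Calls use an adjusted p under 0.05 together with a 2-fold change, or the adjusted p alone. Exact tests and tables used Python 3.11.15 and scipy 1.17.1. The fit was tested on simulated data.

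The chemokine genes and the 8 gene lists were chosen with earlier results of these data known. Named genes are all chemokine genes of the list and, per list, up to 4 called at both thresholds or else up to 2 with the highest mean; others are said to be named after their values were seen. The replicate numbers 1 to 3 occur in both groups. Deviations from the group means correlated at 0.192 to 0.43 between same-numbered libraries, highest for replicate 2, and at -0.312 to 0.138 between the others. Part of this contrast is built in, because deviations cancel out within each group. The number was treated as a pairing in an alternative fit, although no source says what it marks and the pairing comes from these same data. Alternatives were a pseudocount of 1 or 0.01, a filter at 1 FPKM or none, median-ratio scaling, a common total (TPM), no trend, treat, the block and each library left out. Leaving out replicate 2 of both groups, and no filter together with the block, were chosen after seeing the data.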

Additional observations from a re-analysis of the deposited data

How the results depend on the processing

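Ccl2 kept its direction and its call in 15 alternatives (without each library in turn, -2.13 to -1.59) and lost the call with treat. Ccl7 kept its direction in the same 15, with the call lost at a pseudocount of 1 (-0.6, adjusted p = 0.0672), with no filter (-1.12, 0.116), with no mean-variance trend (-1.12, 0.0536) and without replicate 2 of both groups (-1.27, 0.0565); with single libraries left out it was -1.3 to -0.77, and the call held only without OC replicate 2. Cxcl12 passed with the replicate block (0.21) and without replicate 2 of both groups (0.25), and was 0.16 to 0.26 with single libraries left out. Cx3cl1 changed sign around 0, with 0.05 under TPM, 0.02 under median-ratio scaling, and, leaving out single libraries, 0.01 (OC replicate 1), 0.0 (OC replicate 3) and 0.05 (PAKG replicate 1; range -0.03 to 0.05). The chemokine genes called lower at both thresholds numbered 2, but 1 at a pseudocount of 1, with no filter, with no trend and without replicate 2 of both groups, 1 to 2 with single libraries left out, and 0 with treat; at the adjusted p alone they were 1 in the same 4 settings and 1 to 2 with single libraries left out. Those called higher at the adjusted p alone were 0, but 1 with the block and 1 without replicate 2 of both groups. The replicate block changed no other call of a chemokine gene. Over all genes, a pseudocount of 1 gave 62 higher and 28 lower at both thresholds, against 109 and 73. At the adjusted p alone the block gave 1554 higher and 2157 lower, against 751 and 1099, leaving out replicate 2 of both groups gave 1204 higher, and leaving out single libraries gave 331 to 987 higher and 500 to 1240 lower. The median of all genes was -0.0318 as deposited, 0.013 under TPM and -0.00721 under median-ratio scaling. Causes were not tested. Ccl7 rests on few fragments, an estimated 14 to 22 in PAKG and 26 to 73 in OC. Few fragments also underlie Ccl5, Ccl9 and Cxcl16. Their log2 differences were 0.51 to 1.12, -1.06 to -0.78 and 0.08 to 0.67 with single libraries left out.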

Other observations

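The 5 genes whose pattern was most like that of Ccl2 were Xrcc2 (Pearson's r = 0.997), Txnl4b (0.995), Atl2 (0.995), Rtp4 (0.989) and Trdmt1 (0.988). The ranking was over 6 libraries and among 9159 genes averaging 2 FPKM or more, with predicted-gene symbols left out. The r is a description over libraries that fall into 2 groups. Of these, Rtp4, an interferon-induced chaperone of receptors, averaged 1.56 FPKM in PAKG and 4.69 FPKM in OC (log2 fold change -1.55, limma adjusted p = 0.00603), and it was called in 15 of 15 settings. The other 4 had log2 fold changes of -0.431 for Xrcc2 (limma adjusted p = 0.0226, called in 10 of 15 settings), -0.34 for Txnl4b (0.0324, 8 of 15), -0.288 for Atl2 (0.0518, not called, 2 of 15) and -0.35 for Trdmt1 (0.0293, 8 of 15).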
